A study of Drosophila melanogaster with 4 samples.

Results

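The cytochrome P450 genes of Drosophila melanogaster were followed in RNA of whole Xbp1 mutant and control larvae. They were taken as every gene in the deposited table whose symbol starts with Cyp and a digit, which gave 82 symbols. Of these, Cyp1 has no letter after the digit and encodes a cyclophilin, a peptidyl-prolyl isomerase, so it was counted apart. The remaining 81 P450 genes were taken from 15340 genes in all. The ecdysteroid P450 genes with names of their own (phm, dib, sad, shd, spo and spok) do not match that rule and were read separately.

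P450 enzymes are heme-containing monooxygenases that insert an oxygen atom into lipids, hormones and foreign compounds. Most insect P450 proteins sit in the membrane of the endoplasmic reticulum and receive electrons from a shared reductase, whereas those of the mitochondrial clan receive them through ferredoxin. In fly larvae they are known mainly from the midgut, Malpighian tubules and fat body, where many respond to plant toxins and insecticides, while others make or break down the moulting hormone or build the cuticle. By their family number, 36 of the 81 belonged to the CYP3 clan (the large families Cyp6, Cyp9 and Cyp28 among them), 32 to the CYP4 clan, 9 to the mitochondrial clan and 4 to the CYP2 clan.

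The mutant larvae were Xbp1 ex79-/-, in which an imprecise excision had removed the part of Xbp1 that encodes the DNA-binding domain and the site that IRE1 splices. The control larvae were Xbp1+/+ from a precise excision of the same parent line, Xbp1 CB02061. Xbp1 is a transcription factor of the unfolded protein response, which its splicing by IRE1 activates when the endoplasmic reticulum is under load. RNA came from second-instar whole larvae 48 h old, in 2 independent extractions for each genotype, and the number of larvae in an extraction was not given in the sources used here. In whole larvae, fewer cells of a type and less RNA per cell cannot be told apart.

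The deposited values are normalized counts, in which the reads of a gene were scaled by a factor for library size. Reads on genes numbered from 31416284 to 38601267 across the 4 libraries, of which the ribosomal RNA pseudogene CR41602 held from 37.2% to 43.66%, and 3 reads were worth a normalized count from 2.69 to 3.62. Xbp1 itself was counted at 6087 and 5953 in the libraries labelled mutant and at 5521 and 7378 in those labelled control (log2 fold change -0.08, SE 0.21, adjusted p = 0.852 from limma). A count over the whole gene therefore gave no check of which libraries were mutant, and every direction below is that of the labels and would turn if they were exchanged. Below, values stand in the order mutant 1 and 2, then control 1 and 2.

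P450 transcripts were unevenly spread over the family. Per kilobase of exon, the mean normalized count over the 4 libraries ranged up to 8502 with a median of 44.1. It reached at least 1000 for 9 genes and stayed under 10 for 21. The most abundant was Cyp6g1 (FBgn0025454), an enzyme that metabolises DDT and neonicotinoids and is raised in resistant strains, followed by Cyp4d1 at 6419 per kilobase. These 2 genes held from 38.5% to 48.04% of the summed normalized counts of all P450 genes in each library. After them, on the same scale, came Cyp6d5 (3179), Cyp9b2 (2972), Cyp28d1 (2630), Cyp4e2 (2044), Cyp28a5 (1597) and Cyp6d2 (1437).

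**Figure D1:**
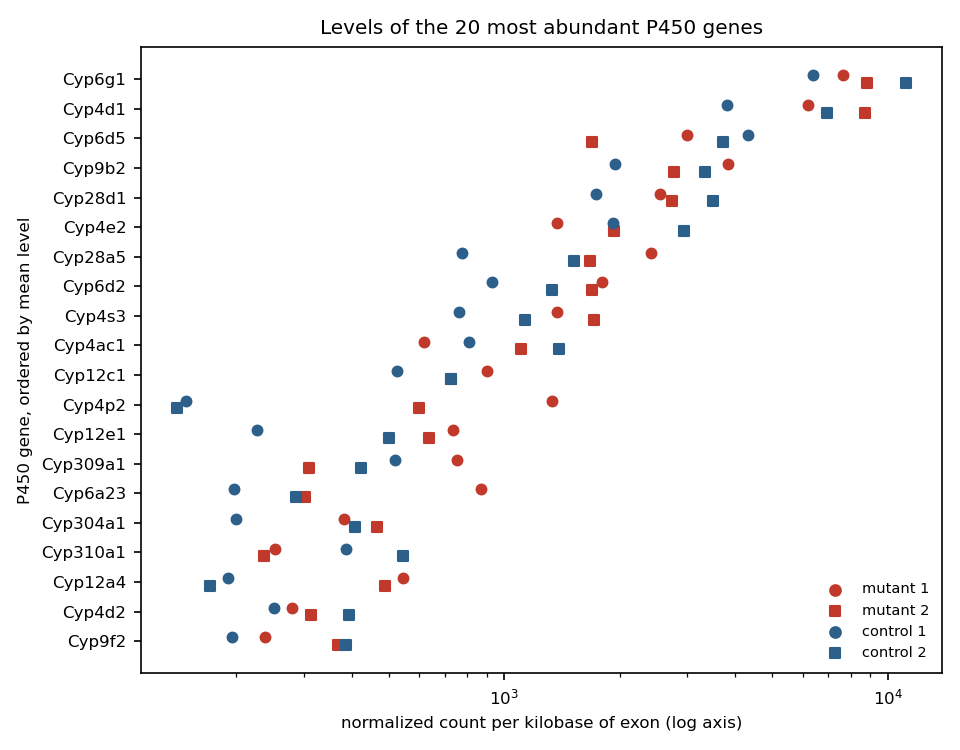
Normalized count per kilobase of exon (log axis) of the 20 P450 genes with the highest mean level, 1 point for each library. By mean level Cyp6g1 and Cyp4d1 lie above the rest, although in control 1 Cyp4d1 (3808) was below Cyp6d5 (4320). For Cyp12a4 and Cyp4p2 the 2 mutant points stand to the right of both control points.

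Of the 9 genes at 1000 per kilobase or more, the groups overlapped for 5 and were separate for 4. Cyp6g1 was counted at 15893 and 18307 in the libraries labelled mutant and at 13240 and 23093 in those labelled control. The control libraries lay on either side of both mutant libraries (log2 fold change -0.04, SE 0.32, adjusted p = 0.960 from limma). Cyp4d1 was counted at 14168 and 19955 against 8701 and 15850, and Cyp9b2 at 6395 and 4628 against 3241 and 5555, again with overlapping groups. The nicotine-inducible Cyp28d1 (4114 and 4425 against 2809 and 5664) and Cyp4e2 (2601 and 3672 against 3656 and 5576) also overlapped. The direction for Cyp6g1 turned without mutant 1 (0.07) and without control 2 (0.37), that for Cyp9b2 without control 1 (-0.03), and that for Cyp28d1 under quantile normalization (-0.04) and without control 1 (-0.41).

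Of the abundant genes that did separate, both libraries labelled mutant lay above both labelled control for Cyp28a5, a toxin-inducible gene, at 4270 and 2950 against 1373 and 2692 (log2 fold change 0.88, SE 0.38, and 0.40 without control 1). They also lay above for Cyp6d2, at 3159 and 2976 against 1635 and 2338 (log2 fold change 0.65, SE 0.23), although 897 of the 1759 exonic bases of Cyp6d2 are shared with nsr on the opposite strand. Cyp6d5, a xenobiotic-inducible gene and the third most abundant, stood the other way, at 4908 and 2778 against 7085 and 6084 (log2 fold change -0.83, SE 0.31, and -0.42 without mutant 2). Cyp4s3, the ninth of these genes, stood at 3145 and 3924 against 1744 and 2596 (log2 fold change 0.72, SE 0.26) and shares 461 of its 2288 exonic bases with Rab3-GEF on the opposite strand. None of the 4 passed the adjusted threshold in limma (adjusted p = 0.347 for each) or in DESeq2 (adjusted p from 0.227 to 0.266).

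Summed over the 81 genes, P450 transcripts came to 78100 and 79641 normalized counts in the libraries labelled mutant and to 55353 and 86190 in those labelled control. The mutant sums therefore lay between the 2 control sums, and the difference between groups was smaller than that between the 2 control libraries. For such a sum, 2 against 2 libraries leave an exact permutation test no two-sided p below 0.33. Control 1 was also the lowest of the 4 libraries for 36 of the 66 P450 genes that averaged 10 normalized counts or more (54.5%), against 34.6% of all 10500 genes at that level. Control 2 was the lowest for 7 of the 66 (10.6%, against 14.7% of all genes) and the highest for 24 (36.4%, against 16.0%). Mutant 1 was the highest for 25 (37.9%, against 29.8%) and the lowest for 14 (21.2%, against 34.0%).

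Gene by gene, groups were compared with limma on log2(normalized count + 1), a scale that understates the change of low genes, over the 10500 genes that averaged 10 or more. Of 66 P450 genes tested, 0 were lower and 0 higher at a Benjamini-Hochberg adjusted p under 0.05 (adjusted p from 0.229 to 0.980 by limma). Over all genes tested the same rule called 0 (0%) lower and 1 (0.00952%) higher. At other scalings it called slightly more of all genes, 4 lower and 10 higher after rescaling all libraries to 1 total and 4 lower and 12 higher after quantile normalization, with 0 P450 genes in either case. edgeR on the reads recovered from the normalized counts also called 0 P450 genes.

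Below that threshold the P450 genes leaned towards higher values in the libraries labelled mutant. At an unadjusted p under 0.05 in limma, 11 of 66 (16.7%) were higher and 6 (9.09%) lower, beside 6.89% and 7.24% of all genes tested. Both mutant libraries lay above both control libraries for 26 of 66 (39.4%) and below for 12 (18.2%), beside 26.2% and 27.9% of all genes, and for the other 28 the groups overlapped. The median log2 fold change of the 66 was 0.31, beside -0.03 over all genes tested. The median was 0.09 without control 1 and 0.60 without control 2. It was 0.23 without mutant 1 and 0.37 without mutant 2, so the size of the lean depended most on the control libraries. A difference of at least 1 on the log2 scale was seen upward in 13 P450 genes (19.7%, beside 6.36% of all genes) and downward in 5 (7.58%, beside 17.2%).

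DESeq2 on the recovered reads gave an adjusted p for 63 of the 66 and called 4 (6.35%) higher and 1 (1.59%) lower, beside 1.79% and 1.69% of the 9930 genes for which it gave one. The 4 higher were Cyp4p2, Cyp12a4, Cyp28c1 and Cyp9b1, and the lower was Cyp6t1. They came from 5 families and 3 chromosome arms, and none of the 5 was called by limma in the comparison of 2 against 2 libraries without a block.

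Cyp4p2 (FBgn0033395; dm6 chromosome arm 2R, 9237512 to 9239831, plus strand), a member of the Cyp4 family, was counted at 2362 and 1064 in the libraries labelled mutant and at 263 and 250 in those labelled control. The control libraries were close to each other, whereas mutant 1 held more than mutant 2, and both lay well above. The log2 fold change was 2.63 (SE 0.40, adjusted p = 0.2496 from limma and 2.94e-07 from DESeq2). Without mutant 2 it passed in limma (adjusted p = 0.00405), but not without mutant 1 (0.444), control 1 (0.636) or control 2 (0.213). In the fit without mutant 2, whose lone mutant library was assumed to vary like the controls, limma called 131 genes lower and 39 higher over all genes.

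Cyp12a4 (FBgn0038681; 3R, 19135158 to 19137136, plus strand) encodes a mitochondrial-clan P450 whose overexpression gives resistance to the insect growth regulator lufenuron. It was counted at 924 and 827 against 324 and 291. Replicates agreed closely in both groups, and the log2 fold change of 1.51 (SE 0.20) ranged only from 1.43 to 1.59 when any one library was left out. Its adjusted p was 0.229 from limma, the lowest of the P450 genes, and 2.33e-04 from DESeq2.

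Cyp28c1 (FBgn0030339; X, 11839608 to 11841503, plus strand), of the Cyp28 family, was counted at 143 and 114.8 against 13.5 and 22.9. Every mutant value was above every control value by a wide margin, with a log2 fold change of 2.80 (SE 0.44, adjusted p = 0.255 from limma and 3.29e-04 from DESeq2). Cyp9b1 (FBgn0015038; 2R, 7127838 to 7129808, minus strand) was counted at 495 and 300 against 92.7 and 140. Here the groups were separate but each was more spread, with a log2 fold change of 1.75 (SE 0.37, adjusted p = 0.343 from limma and 0.00738 from DESeq2).

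Cyp6t1 (FBgn0031182; X, 21517434 to 21519218, minus strand) was the one P450 gene that DESeq2 called lower. It was counted at 34.9 and 92.3 in the libraries labelled mutant and at 446 and 839 in those labelled control. Both groups were spread, yet the lower control library was above the higher mutant library several times over. The log2 fold change was -3.40 (SE 0.57, adjusted p = 0.292 from limma and 9.28e-07 from DESeq2), and the gene passed in limma without mutant 2 (adjusted p = 0.00512) but not without mutant 1 (0.444), control 1 (0.574) or control 2 (0.213).

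**Figure D2:**
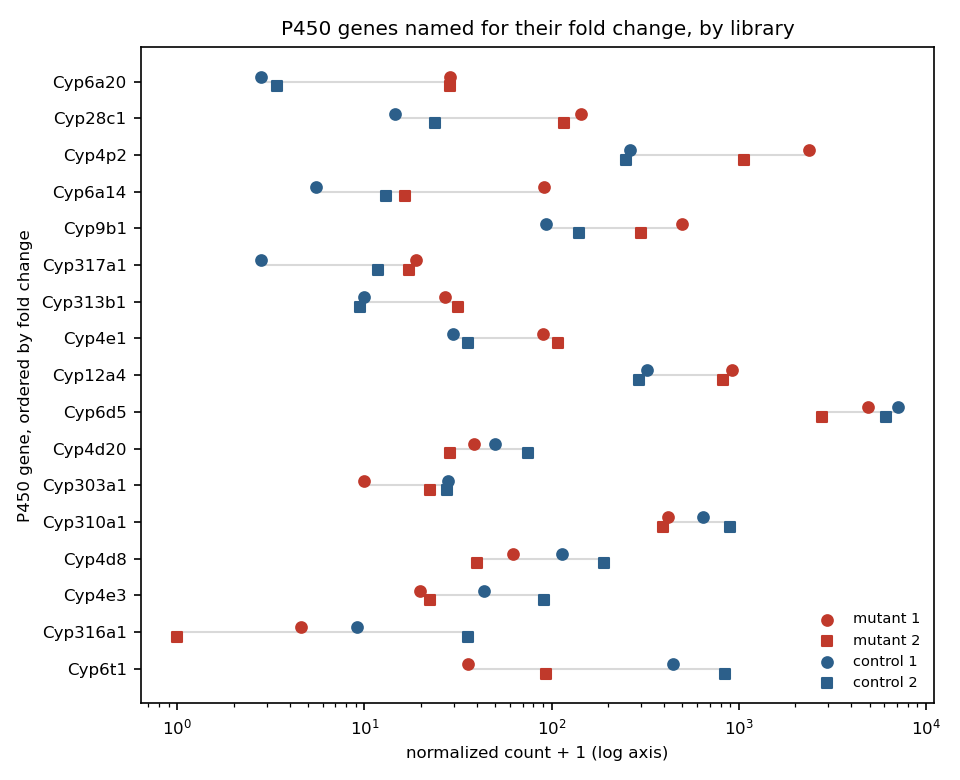
Normalized count plus 1 (log axis) in each of the 4 libraries for the 17 P450 genes named for their fold change, ordered from the highest at the top. From Cyp6a20 (27.8 and 27.7 against 1.80 and 2.41) to Cyp12a4 both mutant points lie right of both control points, and from Cyp6d5 to Cyp6t1 the order is turned.

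The other genes named for a large fold change with higher values in the libraries labelled mutant had low counts, from 1.80 to 106.6. Cyp6a20, which affects male aggression in adult flies, was counted at 27.8 and 27.7 against 1.80 and 2.41, from 58 reads in the mutant group and 4 in the control group. The size-corrected ratio of these reads was 13.4 (95% interval 4.98 to 51.0, counting error only), the log2 fold change was 3.22 (SE 0.62, adjusted p = 0.322 from limma), and DESeq2 gave no adjusted p. Cyp4e1 stood at 88.7 and 106.6 against 28.8 and 35.0 (log2 fold change 1.59, SE 0.37) and Cyp313b1 at 25.99 and 30.8 against 9.002 and 8.44 (1.59, SE 0.51). For both, replicates were close and the groups well apart.

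For Cyp6a14 the gap rested on 1 library. It was counted at 89.6 and 15.4 against 4.50 and 12.1, so mutant 2 lay just above control 2, and the log2 fold change of 2.18 (SE 0.997) was 0.95 without mutant 1. Cyp317a1, at 17.9 and 16.4 against 1.80 and 10.9 (log2 fold change 1.66, SE 0.88, and 0.61 without control 1), shares 1331 of its 4078 exonic bases with Kank on the opposite strand. The library kit keeps strand, but the strand setting of the counting was not given in the sources used here, so reads of such pairs cannot be assigned with certainty. None of these 5 genes passed in limma (adjusted p from 0.322 to 0.381), nor in DESeq2 where it gave an adjusted p.

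The members with separate groups and lower values in the libraries labelled mutant were also modest in level, Cyp6d5 apart. Cyp310a1 was counted at 418 and 391.6 against 643 and 902 (log2 fold change -0.91, SE 0.24). Cyp4d8 stood at 60.9 and 39.0 against 113 and 189 (-1.56, SE 0.43), and Cyp4e3 at 18.8 and 21.5 against 42.3 and 90.4 (-1.57, SE 0.53). In each of the 3 genes control 2 was the highest of the 4 libraries. Cyp4d20 stood at 37.6 and 27.7 against 48.6 and 73.6 (-0.87, SE 0.44).

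Cyp316a1 had only 4 and 0 reads in the mutant libraries and 9 and 29 in the control libraries, a size-corrected ratio of control over mutant of 10.2 (95% interval 3.69 to 39.5, counting error only). Its log2 fold change of -3.08 had an SE of 1.15. Cyp303a1, needed for the structure of sensory bristles, stood at 8.96 and 21.5 against 27.0 and 26.5 (log2 fold change -0.89, SE 0.60, and -0.30 without mutant 1), and 919 of its 2787 exonic bases are shared with heix on the opposite strand. None of these 6 passed in limma (adjusted p from 0.347 to 0.459), nor in DESeq2, which gave no adjusted p for Cyp316a1.

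By family number, the direction was not uniform. Over all genes tested, 47.8% were above 0, and the groups were separate upward for 26.2% and downward for 27.9%. All 4 tested genes of Cyp28 (median log2 fold change 0.72) and all 4 of Cyp9 (0.47) had fold changes above 0, with separate groups for 3 and 2 of them. Leaving out 1 library brought Cyp28d1 to as low as -0.41, Cyp9b2 to -0.03 and Cyp9f2 to -0.39. In Cyp12, the family of mitochondrial P450 enzymes linked to insecticide metabolism, 4 of 6 were above 0 and separate, and the median was 0.60. In Cyp6, 14 of 21 were above 0, with 8 separate upward and 5 downward (median 0.37). In Cyp4, 8 of 19 were above 0 and 11 below, with 6 separate upward and 3 downward (median -0.08), so the 2 largest families did not lean alike. No test was made between families.

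**Figure D3:**
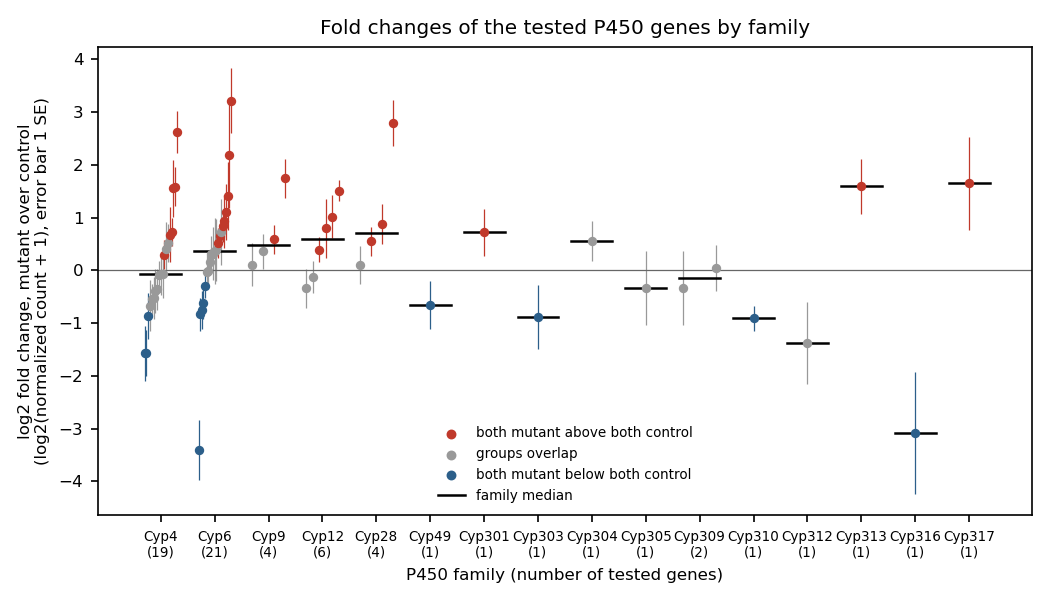
Log2 fold change of each of the 66 tested P450 genes by family, with 1 SE from limma as the error bar and the family median as a line. All Cyp28 and Cyp9 points lie above 0, and Cyp6 spans from -3.40 (Cyp6t1) to 3.22 (Cyp6a20).

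Subfamilies split further. Within Cyp4, the 3 Cyp4ac genes had log2 fold changes from -0.53 to -0.36, all with overlapping groups. Of the 3 Cyp4e genes 1 was above 0, and of 5 Cyp4d genes 4 were below. Of those 4, Cyp4d2 and Cyp4d14 had overlapping groups, and leaving out 1 library gave from -0.41 to 0.23 for Cyp4d2. On the opposite strand, other genes share 2436 of the 2467 exonic bases of Cyp4d2 and 1647 of the 1694 of Cyp4d14, so their reads are uncertain. Of the 3 Cyp4p genes, Cyp4p2 (above) and Cyp4p1 had separate groups, the latter at 720 and 305.5 against 112 and 224 (log2 fold change 1.56, SE 0.54, adjusted p = 0.347 from limma and 0.0785 from DESeq2). Leaving out any one library gave values from 0.94 to 2.18 for Cyp4p1. The neighbour Cyp4p3 did not separate, at 168 and 135 against 104 and 240. Within Cyp12 the family sum was 4188 and 3588 against 2006 and 2974, with Cyp12e1 at 1191 and 1031 against 367 and 810 and Cyp12c1 at 1703 and 1373 against 989 and 1366. Both mutant libraries were above both control libraries for Cyp12e1 and Cyp12c1, for the latter by less than 1% in the closest pair.

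Many P450 genes lie side by side, and neighbours were compared by the sign of their fold changes. Whether they moved together was not tested, and some signs rest on values near 0, such as those of Cyp6g1 (-0.04) and Cyp6g2 (-0.02). With a gap of at most 20 kb between neighbours, 46 of the 81 genes fell into 16 clusters and 35 stood alone. Of the 12 clusters with at least 2 tested genes, 6 had fold changes of a single sign, and of 25 neighbouring pairs 15 had the same sign. The largest cluster held 9 genes on 2R (dm6, 14871366 to 14903095), namely Cyp6a22, Cyp6a17, Cyp6a23, Cyp6a19, Cyp6a9, Cyp6a20, Cyp6a21, Cyp6a8 and Cyp317a1. Of these, 7 were above 0 and 2 below (Cyp6a9 at -0.75 and Cyp6a21 at -0.61), and Cyp6a20, with the highest fold change of all P450 genes, lay between the 2 that were below. Cyp6a19 and Cyp6a9 overlap by 397 exonic bases on opposite strands.

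Cyp6a23 in that cluster was counted at 1530 and 533 against 347 and 504 (log2 fold change 1.11, SE 0.53, adjusted p = 0.358 from limma). Mutant 2 lay close to control 2. The log2 fold change was 1.87 without mutant 2 (adjusted p = 0.0499 from limma) and 0.35 without mutant 1 (adjusted p = 0.999). Its close copy Cyp6a17, which affects temperature preference, stood at 105 and 37.9 against 28.8 and 49.4 with overlapping groups, and reads of the 2 genes may be shared between them. On 3L, Cyp316a1 and Cyp4d8 lie next to each other, and both had lower values in the mutant libraries, with log2 fold changes of -3.08 and -1.56. On 3R, Cyp12a5 and Cyp12a4 lie next to each other at 0.80 and 1.51.

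**Figure D4:**
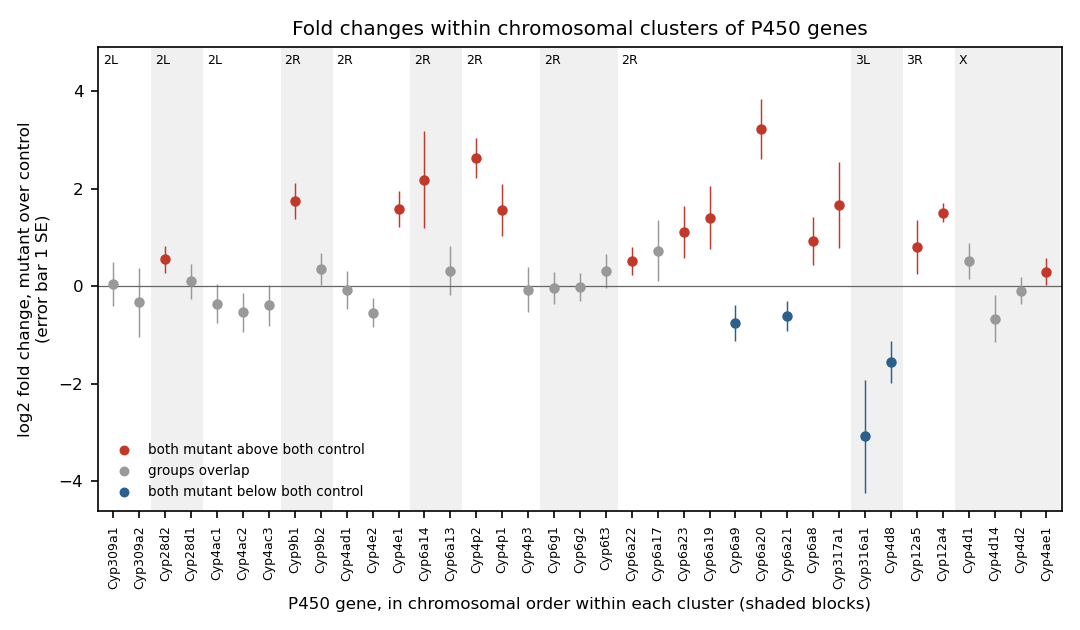
Log2 fold change with 1 SE from limma for P450 genes in the 12 clusters with at least 2 tested members, in chromosomal order, with the chromosome arm above each block. In the 9-gene cluster on 2R fold changes run from -0.75 to 3.22, and the 3 Cyp4ac genes on 2L all lie below 0.

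Genes with known parts in insecticide metabolism were not all alike. The groups were separate upward for Cyp12a4 (above) and Cyp12a5 (below), and overlapped for Cyp6g1 and the genes given here. Cyp6a2, a DDT-metabolising enzyme raised in resistant strains, stood at 62.7 and 94.3 against 33.3 and 105 (log2 fold change 0.37, SE 0.63), and its direction turned without control 1 (-0.44). Cyp6w1, which metabolises DDT when overexpressed, stood at 31.4 and 23.6 against 13.5 and 31.4, and Cyp6g2, which is expressed in the corpus allatum, at 121 and 127 against 113 and 139. The groups overlapped in all 3, and the direction of Cyp6w1 turned without control 1 (-0.20) and that of Cyp6g2 under quantile normalization (0.29), without mutant 1 (0.02) and without control 2 (0.13). Cyp12d1-p stood at 134 and 173 against 145 and 256 with a direction that turned without control 2 (0.07), while its near-identical copy Cyp12d1-d had 0, 0, 0 and 2.41, so the counts of this pair are uncertain.

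Among the inducible members of lower level, Cyp6a8, a lauric acid hydroxylase that phenobarbital induces, stood at 31.4 and 35.9 against 13.5 and 21.7 (log2 fold change 0.93, SE 0.50). Cyp28d2, the neighbour of Cyp28d1, stood at 203 and 162 against 118 and 129 (0.55, SE 0.28), and Cyp12a5, which metabolises neonicotinoids, at 40.3 and 20.504 against 18.005 and 14.5 (0.80, SE 0.56). In these 3 both mutant libraries were above both control libraries. Cyp6a9, at 45.7 and 59.5 against 77.4 and 101 (-0.75, SE 0.37), was the other way round. None of the 4 passed in limma (adjusted p from 0.359 to 0.471).

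Members with developmental roles differed in level. Cyp18a1, which inactivates the moulting hormone 20-hydroxyecdysone, had 19 and 9 reads in the mutant libraries and 3 and 2 in the control libraries, under the mean needed for a test. The size-corrected ratio of its reads was 5.19 (95% interval 1.98 to 17.2, counting error only). Cyp4g1, the decarbonylase with which oenocytes make cuticular hydrocarbons, stood at 33.2 and 21.5 against 23.4 and 16.9, and Cyp301a1, needed for the adult cuticle, at 34.1 and 37.9 against 18.9 and 24.1. The groups overlapped for Cyp4g1 and were separate for Cyp301a1 (log2 fold change 0.72, SE 0.45, adjusted p = 0.427 from limma). Cyp6t3, linked to ecdysteroid synthesis in the ring gland, stood at 109 and 120 against 74.7 and 114.6, with a direction that was lost without control 1 (-0.00065).

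The 15 P450 genes under a mean of 10 all had means of at most 7.84, and 6 of the 81 genes lacked a read in at least 1 library. In these 15, both mutant libraries were above both control libraries for 7 and below for 2, and the groups overlapped for 6. Over all 3473 genes with a read and a mean under 10, the groups were separate upward for 21% and downward for 15.3%. They included 5 of the 6 Cyp313 genes, Cyp311a1, which shapes the microvilli of the larval midgut (2.69 and 6.15 against 0 and 1.21), and Cyp4g15, a relative of Cyp4g1 found in glia (0.896 and 1.03 against 0.900 and 0). Most of these values are at or near what 3 reads are worth, which leaves wide counting intervals. Beside Cyp18a1, the best covered was Cyp313a3, with 25 reads in the mutant group and 6 in the control group (size-corrected ratio 3.87, 95% interval 1.55 to 11.5, counting error only).

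P450 enzymes depend on electron donors and heme, and 24 genes of these pathways, of xenobiotic regulators and of ecdysteroid synthesis were read beside them. Of 21 tested, limma called 0 and 3 were higher at an unadjusted p under 0.05 (beside 6.89% of all genes), with 0 lower (beside 7.24%), while DESeq2 called 2 higher (beside 1.79%). Cpr, the reductase that feeds the microsomal P450 enzymes, was counted at 2594 and 1774 against 927 and 1143, so both mutant libraries were above both control libraries. Its log2 fold change was 1.06 (SE 0.26, adjusted p = 0.347 from limma and 0.0473 from DESeq2).

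The genes of heme synthesis had fold changes of both signs, and only Pbgs had an unadjusted p under 0.05 in limma. Pbgs, which carries out the second step of the pathway, stood at 734 and 421 against 178 and 215. The control libraries were close together and both mutant libraries lay above them. Its log2 fold change was 1.503 (SE 0.33, adjusted p = 0.345 from limma and 0.0126 from DESeq2). Of the 7 genes of heme synthesis read here, 4 had separate groups upward and 1 downward, Ppox (218 and 339 against 548 and 357). Beside them, the groups were separate upward for 26.2% and downward for 27.9% of all genes tested.

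Of the 4 regulators of P450 genes, 1 had separate groups upward and 1 downward, near the shares of all genes tested (26.2% and 27.9%). Hr96, the xenobiotic nuclear receptor and the one downward, stood at 323 and 305.5 against 339 and 334 (log2 fold change -0.10, SE 0.21). The Nrf2 homolog cnc stood at 9594 and 8533 against 6454 and 8855, with overlapping groups. Keap1, the inhibitor of cnc, stood at 565 and 500 against 338 and 367 (log2 fold change 0.59, SE 0.20, adjusted p = 0.347 from limma). Of the ecdysteroid P450 genes, shd, which makes 20-hydroxyecdysone in peripheral tissue, was counted at 3000 and 3310 against 1439 and 2583. The ring gland enzymes phm and sad exceeded the worth of a few reads only in control 1, at 53.1 and 59.4, against at most 7.17 in the other libraries. By contrast, dib (5.38 and 16.4 against 2.70 and 9.65) and spo (18.8 and 5.13 against 4.50 and 6.03) were lowest in control 1. The groups overlapped for both, and for spok (4.48 and 1.03 against 11.7 and 1.21).

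**Figure D5:**
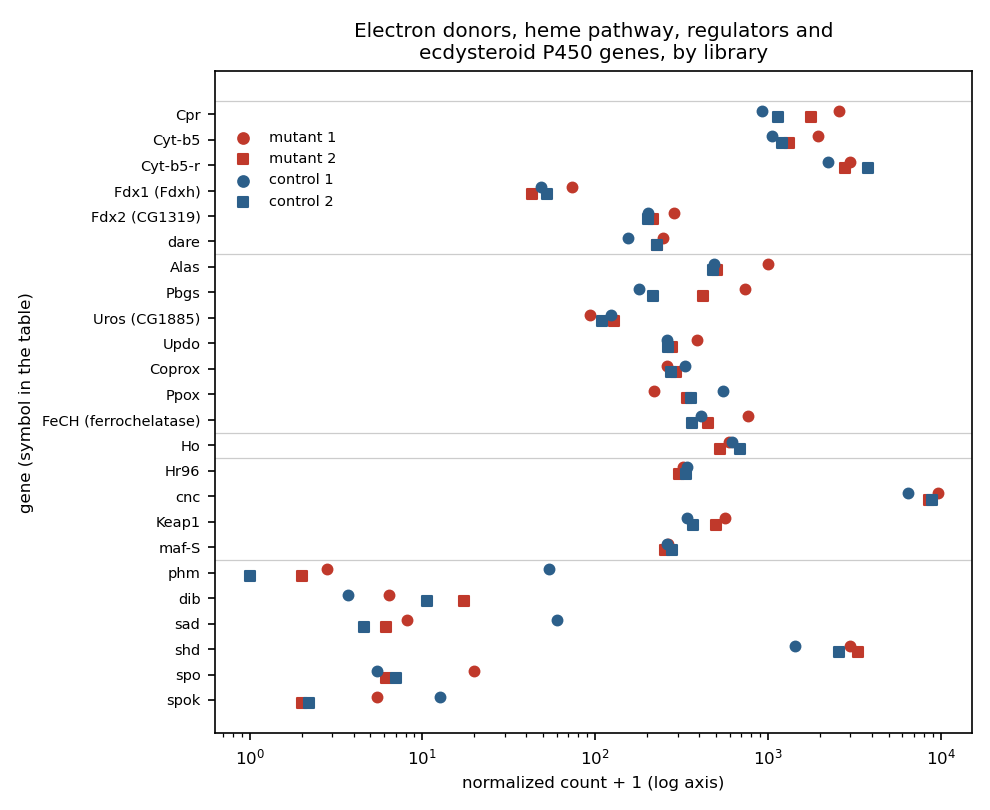
Normalized count plus 1 (log axis) in each library for electron donors, heme synthesis and breakdown, regulators and the ecdysteroid P450 genes. Both mutant points lie right of both control points for Cpr and Pbgs. Control 1 stands alone to the right for phm and sad, and is the lowest point for dib and spo.

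Markers of midgut enterocytes, Malpighian tubules, fat body and spermatocytes were read in the same libraries, and their part in the P450 values was not tested. The groups overlapped for the 2 male dosage compensation RNAs also read, roX1 and roX2, and for all 6 larval serum and late-larval fat body genes. Over all 13973 genes with a read, the groups were separate upward for 24.9% and downward for 24.7%. Of 7 Malpighian tubule markers, 5 were higher in both mutant libraries, 0 were lower and 2 overlapped (ZnT35C and Irk3). Uro, urate oxidase, had the largest fold change of those tested, at 180 and 97.4 against 22.5 and 4.82. ZnT35C went the other way, at 105 and 154 against 367 and 134. CapaR, Oatp58Db and Best2 were at most 16.4 in any library. The summed level of the list was 588 and 512 against 543 and 288, with ZnT35C the largest part in control 1. Of 8 midgut enterocyte markers, 4 were higher and 1 lower, with a sum of 4600 and 3532 against 4706 and 3203. In that list alphaTry was at 0 in 3 libraries, and Jon65Aiii stood at 1333 in control 1 and at most 16.9 elsewhere. Of 6 fat body markers 1 was higher and 5 overlapped, with a sum from 525886 to 551407 in the mutant group and from 329737 to 694295 in the control group, the lowest again in control 1. Of 10 spermatocyte markers, 8 were lower in both mutant libraries and 0 higher, with a sum of 212 and 596 against 1892 and 769, while tomb was at 0 throughout. Cyp312a1, a P450 gene picked once its values had been seen, had overlapping groups at 33.2 and 113 against 275 and 94.1. It was highest in control 1 and lowest in mutant 1. Of all genes tested, 38.7% were highest in control 1 and 34.0% lowest in mutant 1. Cyp6t1 and Cyp4d8, with separate groups downward, were highest in control 2 (839 and 189). A link of any P450 gene to these cells was not tested.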

How the data were processed

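Total RNA of whole second-instar larvae was depleted of ribosomal RNA and sequenced by the authors from stranded libraries. Per the labels and the study's methods, reads were aligned to dm6 with TopHat2 2.1.1, counted per gene with HTSeq 0.6.1 and normalized with DESeq2. The values deposited by the authors are a signal of normalized counts, that is read counts scaled by a size factor per library. All values (100%) were whole multiples of 1 read within 0.01 read, so reads were recovered from them. Gene symbols, positions and exon lengths came from the Ensembl annotation of the same assembly, in which all 82 symbols were found; 4 annotated P450 genes and pseudogenes were not analysed here.

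The 2 mutant and 2 control libraries were compared with limma 3.58.1 in R 4.3.3 (lmFit, then eBayes with a trend over intensity), after adding 1 to the normalized counts and taking log2, over genes that averaged 10 or more. P-values were adjusted by Benjamini-Hochberg over all 10500 genes with a threshold of 0.05. With 2 extractions in each group, p-values measure the spread between these extractions. Alternatives were pseudocounts of 0.5 and 5, no filter, a mean of at least 50, quantile normalization, rescaling to the same total, the replicate number as a block, eBayes without trend, DESeq2 1.42.0 with and without that block, edgeR 4.0.16, and leaving out each library. The tests were run on simulated counts first. A crossed pairing was added after the data were seen.

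Named genes were the P450 genes called by limma or DESeq2, the 8 largest rises and 8 largest falls among tested genes with separate groups, the 8 with the highest level per kilobase, those with a listed role, and partner genes at an unadjusted p under 0.05. Cyp1, Cyp4p1, Cyp4p3, Cyp4s3, Cyp12e1, Cyp12c1, Cyp312a1, Cyp313a3, Cyp6a21, Hr96, cnc, Ppox, shd, phm, sad and the marker genes given with values fall outside this rule; they were picked once their values had been seen. Cyp4d2, Cyp4d14, Cyp9f2, dib, spo and spok were picked in the same way. The members and all gene lists were chosen with earlier results of these data known. Intervals were taken on the pooled reads of each group, so intervals and floors cover counting error only and not the spread between extractions. The reads carry no molecular identifiers, so copies of a molecule were not set apart. No sequences of these genes were used here, and 1 partner gene is not reported here.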

Additional observations from a re-analysis of the deposited data

How the results depend on the processing

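With 2 libraries in a group, which genes pass a threshold depended on the tool more than on filters or pseudocounts. Of the P450 genes, limma called 0 lower and 0 higher, DESeq2 1 and 4, and DESeq2 with the replicate number as a block 1 and 3 (Cyp9b1 then had an adjusted p of 0.0627). Of the partner genes limma called 0, DESeq2 2 and DESeq2 with the block 0, so neither Cpr nor Pbgs. Over all genes limma called 0 lower and 1 higher, DESeq2 168 and 178, and DESeq2 with the block 92 and 88. In limma, rescaling to the same total called 4 lower and 10 higher, quantile normalization 4 and 12, no filter 3 higher, and eBayes without trend 0 higher. The cause of these differences was not tested.

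Libraries of the same number deviated from their group means in opposite ways (correlation -0.443 across genes, which are not independent replicates), so the numbers were not taken as pairs. With the replicate block limma called 0 genes higher, and 13 P450 genes, in place of 17, had an unadjusted p under 0.05. A crossed pairing chosen after the data were seen called 1410 genes lower and 390 higher, with 4 and 12 P450 genes, 2 partner genes and 26 P450 genes at an unadjusted p under 0.05.

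Without 1 library, the lone library of a group was assumed to vary like the other group. P450 calls ranged from 0 to 1 lower and from 0 to 2 higher, those at an unadjusted p under 0.05 from 11 to 20, and the P450 median from 0.094 to 0.60. Over all genes the calls ranged from 0 to 131 lower and from 0 to 39 higher, with the highest numbers without mutant 2. The log2 ratio of the summed P450 counts ranged from -0.13 to 0.51.

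Of 37 named P450 genes tested, 29 kept their direction in every alternative that gave them a value and 8 did not; a mean of at least 50 left 24 of the 37. Quantile normalization turned Cyp28d1 (-0.043) and Cyp6g2 (0.29). Leaving out 1 library gave log2 fold changes from -0.44 to 0.37 for Cyp6g1, -0.030 to 0.75 for Cyp9b2, -0.41 to 0.60 for Cyp28d1, -0.16 to 0.13 for Cyp6g2, -0.75 to 0.069 for Cyp12d1-p, -0.44 to 1.18 for Cyp6a2, -0.20 to 0.96 for Cyp6w1 and -0.00065 to 0.61 for Cyp6t3. Quantile normalization moved the median of all genes from -0.03 to 0.07, and the P450 median above it from 0.34 to 0.24. Levels near 3 reads limit what can be said of the 15 low P450 genes.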
